A study of Bos taurus with 60 samples.

Results

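The comparison of D25 with D3 set the mammary gland 25 d after dry-off, when the dry gland was in redevelopment, against the gland 3 d after dry-off, in early involution. All libraries of these days were taken, 12 at D3 and 12 at D25, which are 24 of the 60 libraries of the series. They came from biopsies of 12 multiparous Holstein cows, each sampled on all 5 days, and the cow was the biological replicate. From dry-off on, 6 cows were cooled (CL; shade, fans and soakers) and 6 were heat-stressed (HT; shade without the other cooling), and the treatments were pooled here, with 6 CL and 6 HT cows on each day. All 12 cows were pregnant, since dry-off was set by the expected calving, and there was no group of cows that was not. The days were compared without pairing by cow, because the labels of some HT samples at the late days may be exchanged.

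When milk is no longer removed, milk stays in the alveoli, the secretory epithelium is remodelled and part of it dies, a course in which STAT3 signalling, lysosomal proteases and acute phase proteins are well known. In a pregnant dairy cow the gland does not regress fully. New epithelium grows during the dry period, and before calving it takes up the synthesis of fat, lactose and milk protein again. Around the alveoli lie contractile myoepithelial cells, which carry basal keratins and smooth muscle actin and rest on a laminin-rich basement membrane.

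Levels are given as CPM, which are read counts scaled to a common library size after TMM scaling, and differences are log2 fold changes of D25 minus D3 from 1 fit of all 60 libraries, with a standard error (SE). A locus was a DEG at a Benjamini-Hochberg false discovery rate (FDR) of at most 0.05. Total counts of the 24 libraries ranged from 20525083 to 26044014, with a median of 22212089. No library repeated another within its day. Gene symbols were held for 3007 of the 14714 tested loci, which rank high in changes around dry-off that share the D3 libraries used here. DEG counts, shared signs and medians in the gene lists below are therefore no independent evidence of their direction. Of the luminal epithelial markers KRT8, KRT18, KRT19, EPCAM and ELF5, only KRT19 was paired with a locus, and it was present in all 24 libraries. In bulk tissue, fewer cells of a type and less RNA per cell cannot be told apart.

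The D3 libraries were not alike. Those of cows 8541 and 8713 (HT) and 8564 and 8647 (CL) were rich in transcripts of CSN1S1, CSN2 and LALBA, which summed to between 41574.5 and 92646 CPM there. The same sum was 83.3 to 8992 CPM in the other 8 D3 libraries and 617 to 31537 CPM at D25. The 10 most abundant loci took 15.5 to 22.5% of the counts in the 4 libraries and 4.53 to 5.89% in the other 8, and the TMM factors were 0.798 to 0.880 against 1.09 to 1.18. These 4 libraries are called casein-rich below, and the fit without them is given beside the genes described in full and, for the others, as a count of those that passed it. At the other end lay the D3 libraries of cows 8686 (CL) and 8668 (HT). One of these 2 was the D3 library nearest to the D25 side in 464 of 680 loci that fell and in 159 of 206 that rose, 68.2% and 77.2%, against 17.7% and 21.5% of all tested loci. The spread between cows was also wider at D3, with a median SD of 0.429 on the log2 CPM scale against 0.319 at D25.

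A total of 886 loci were DEGs between D25 and D3, 206 higher and 680 lower at D25, which is 6.02% of the loci tested, 1.40% higher and 4.62% lower. The median log2 fold change was 0.74 for the DEGs that were higher and -0.74 for those that were lower, and 58 and 224 of them changed by at least 1 on the log2 scale. Among loci with a symbol 4.49% were higher and 18.3% were lower, and among those without one 1.72% were DEGs. Those 4.49% and 18.3% are the background for the DEG counts of gene lists and families below. Over all tested loci the median was 0.02. With the cow as a block, 1767 loci were DEGs (707 higher and 1060 lower), among them 202 of the 206 and 669 of the 680. Without the casein-rich D3 libraries, 57 loci were DEGs, 1 higher and 56 lower, of which 1 and 55 were among those above. The 206 loci that were higher all kept their sign without these libraries, at a median log2 fold change of 0.55, as did 667 of the 680 that were lower, at a median of -0.38. Leaving out 1 cow at all days gave between 390 and 1145 DEGs, and the total was more than 1.5 times lower without cow 8647 (390), 8564 (411) or 8713 (519). The number that were higher was 58 to 136 without any one of cows 8564, 8647, 8713, 8541, 8060, 8314 and 8603, and 320 and 316 without cows 8668 and 8686. In 316 of the 680 the 4 casein-rich libraries all lay above the other 8 D3 libraries, and in 39 of the 206 they all lay below. The share over all tested loci was not computed, so both counts are a description. At no locus (0%) were the 12 D25 libraries fully apart from the 12 D3 libraries. In 386 of the 680 loci that fell every D25 library lay below the D3 median, and in 106 of the 206 that rose every one lay above it. These loci were chosen for their difference and the share over all tested loci was not computed, so these counts are a description too.

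**Figure D1:**
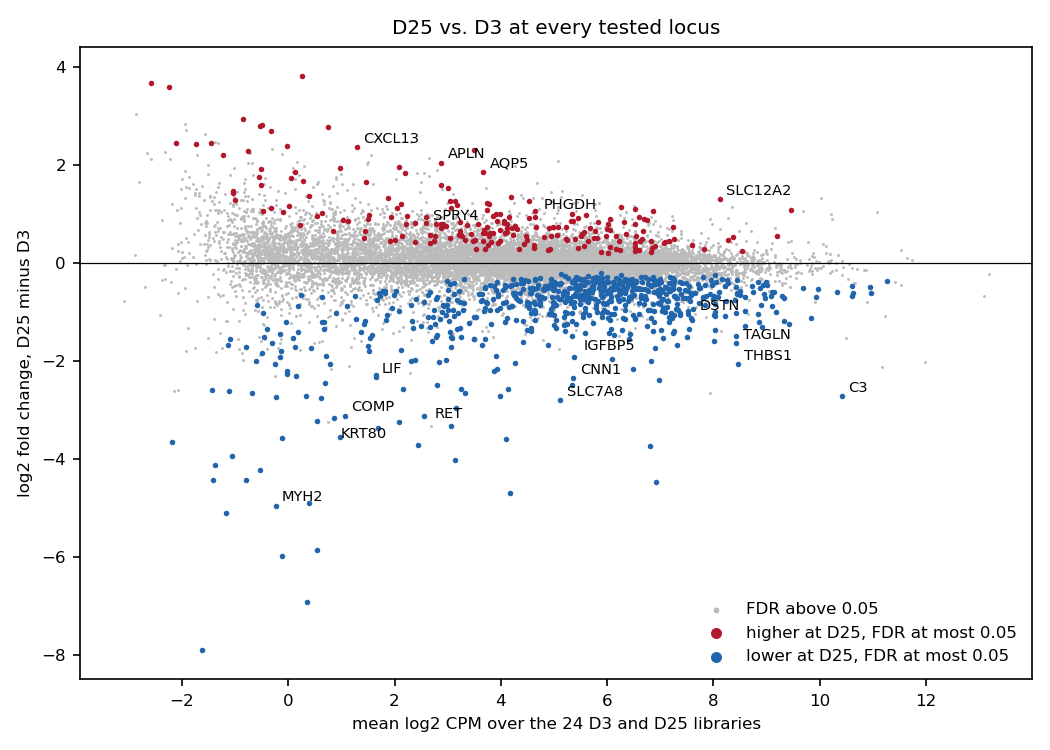
Each point is a tested locus, placed by its mean log2 CPM over the 24 libraries (x axis) and its log2 fold change, D25 minus D3 (y axis). Red and blue points are the 206 and 680 DEGs higher and lower at D25, and the lower ones extend to larger differences.

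Genes of myoepithelial and smooth muscle cells were lower at D25. All 8 members of the list that could be tested, of 15 listed, passed the test, where 18.3% of the loci with a symbol were lower. Their median log2 fold change was -1.31, and -1.17 without the casein-rich libraries, where 3 passed. CNN1, which encodes the actin-binding protein calponin of contractile cells, had 17.4 to 233 CPM at D3 (median 99.1) and 8.77 to 44.6 CPM at D25 (median 17.6). All 12 D25 libraries lay below the D3 median of CNN1, and the difference was -2.35 (SE 0.40, FDR 0.00019), or -1.80 (FDR 0.026) without the casein-rich libraries. ACTA2, smooth muscle actin itself, was at 264 to 1413 CPM at D3 (median 833) and at 169.6 to 548 CPM at D25 (median 324), a difference of -1.31 (FDR 0.0017), or -1.18 (FDR 0.065) without the 4. Transgelin, from TAGLN, differed by -1.64 (FDR 0.00033) and by -1.52 (FDR 0.013) without the 4 libraries. Of the basal keratins, KRT5 had 246 to 1136 CPM at D3 (median 667) and 165 to 436 CPM at D25 (median 228). KRT5 fell by 1.30 on the log2 scale (FDR 0.0064), and 7 of its D25 libraries were below every D3 library. KRT17, at a locus that joins 2 ENSEMBL genes, fell by 1.43, and 9 D25 libraries lay below every D3 library. The heavy chain MYH11, LMOD1 and CALD1 fell by 0.64 to 0.86. KRT5 passed without the casein-rich libraries, at -1.38 (FDR 0.044), and KRT17, MYH11, LMOD1 and CALD1 did not, at FDR of 0.13 to 0.67.

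Genes of the actin cytoskeleton and of cell adhesion formed the list with the most DEGs and also the most genes tested. Of the 40 tested, 29 (72.5%) were lower and none was higher. All 40 had a negative log2 fold change, with a median of -0.62. Without the casein-rich libraries the median was -0.39, and 4 were DEGs: DSTN, TPM1, MYL12A and CNN2, the last of them not a DEG among all 24. DSTN encodes destrin, which severs actin filaments, and it had the smallest p of the comparison. Its levels were 149.7 to 487 CPM at D3 (median 258) and 119 to 154 CPM at D25 (median 135), and 10 of 12 D25 libraries were below every D3 library. The difference was -1.14 (SE 0.16, FDR 9.3e-06), and -0.72 (FDR 0.0059) without the 4 libraries, which lay at 399 to 487 CPM. Tropomyosins wind along actin filaments, and all 3 of those tested were lower: TPM1 by 1.19, TPM2 by 1.21 and TPM4 by 1.01 on the log2 scale. Of the genes of myosin regulation, MYL9 (-1.06), MYL12A (-0.64) and the kinase MYLK (-0.76) were lower. MYL12A ranged from 275 to 644 CPM at D3 and from 255 to 315 CPM at D25. The crosslinkers FLNA (-0.69), ACTN1 (-0.69) and ACTN4 (-0.98), the small GTPases RHOA (-0.45), RHOB (-0.99) and RAC1 (-0.60), and the integrin-linked kinase ILK (-0.69) were DEGs as well, though only with the casein-rich libraries. ITGB6, an epithelial integrin chain, had a log2 fold change of -1.10 that did not pass (FDR 0.14).

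Of 15 tested genes of the extracellular matrix, 8 (53.3%) were lower at D25 and none was higher. Their median was -0.98, and -0.88 without the casein-rich libraries. COMP, a pentameric matrix glycoprotein of cartilage and tendon, had 0.205 to 31.2 CPM at D3 (median 4.28) and 0.285 to 2.86 CPM at D25 (median 0.844). Its levels overlapped between the days, since the D3 library of cow 8686 was as low as any at D25, but all 12 D25 libraries lay below the D3 median. The difference was -3.12 (SE 0.62, FDR 0.00097), and it was -3.52 (FDR 0.0031) without the casein-rich libraries, which were not the highest for this gene. THBS1, thrombospondin, had 160.1 to 2328 CPM at D3 (median 795) and 129 to 270.3 CPM at D25 (median 196), a log2 fold change of -2.07 (FDR 0.00046), or -1.73 (FDR 0.025) without the 4. MXRA5 fell by 1.50 and, without the 4 libraries, by 1.82 (FDR 0.021). The 3 inhibitors of metalloproteinases TIMP1 (-1.11), TIMP2 (-1.12) and TIMP3 (-0.98) were lower too, as was the lysyl oxidase LOXL4 (-2.72). Without the 4 libraries these did not pass, at -1.16 (FDR 0.19), -0.88 (FDR 0.35), -0.86 (FDR 0.053) and -1.54 (FDR 0.32). Of the matrix genes of stroma, decorin (DCN) was at 0.08, COL14A1 at 0.23, FBLN5 at 0.25 and OGN at 0.97, with FDR from 0.097 for OGN to 0.87 for DCN, and fibronectin (FN1) was at -0.80 (FDR 0.13).

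Among keratins and luminal markers, 4 of 7 tested loci (57.1%) were lower. KRT80 is a keratin of differentiating epithelia, and it had 1.32 to 69.7 CPM at D3 (median 15.0) and 0.573 to 5.89 CPM at D25 (median 1.57). The KRT80 difference of -3.24 (SE 0.59, FDR 0.00046) was -2.78 (FDR 0.021) without the casein-rich libraries. KRT19, a keratin of luminal cells, had 458 to 3229 CPM at D3 (median 918) and 277 to 669.9 CPM at D25 (median 503). KRT19 fell by 1.24 (FDR 0.019), and by 0.60 (FDR 0.76) without the 4 libraries. The locus of KRT7 and that of KRT6B and KRT75 were also DEGs, at -1.22 and -4.24, and without the 4 libraries were at -0.80 (FDR 0.50) and -1.61 (FDR 0.52). GATA3, a transcription factor of the luminal lineage, had 58.0 to 108 CPM at D3 (median 79.6) and 78.1 to 138 CPM at D25 (median 112). Although 8 of 12 D25 libraries were above every D3 library, its difference of 0.51 did not pass (FDR 0.12).

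Tight junctions seal the alveolar epithelium, and 4 of 9 tested genes (44.4%) were lower at D25. The list median was -0.53, or -0.24 without the casein-rich libraries, where none was a DEG. The claudin gene CLDN3 had 73.2 to 700.4 CPM at D3 (median 143) and 34.1 to 116 CPM at D25 (median 76.8). Its difference was -1.29 (FDR 0.013) and became -0.49 (FDR 0.81) without the 4 libraries. CLDN7 (-0.97), CLDN15 (-0.58) and the junction adhesion gene F11R (-0.53) were the other DEGs. CLDN4 was at -1.08 (FDR 0.053), occludin (OCLN) at -0.22 and TJP1 at -0.16, none of which passed.

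**Figure D2:**
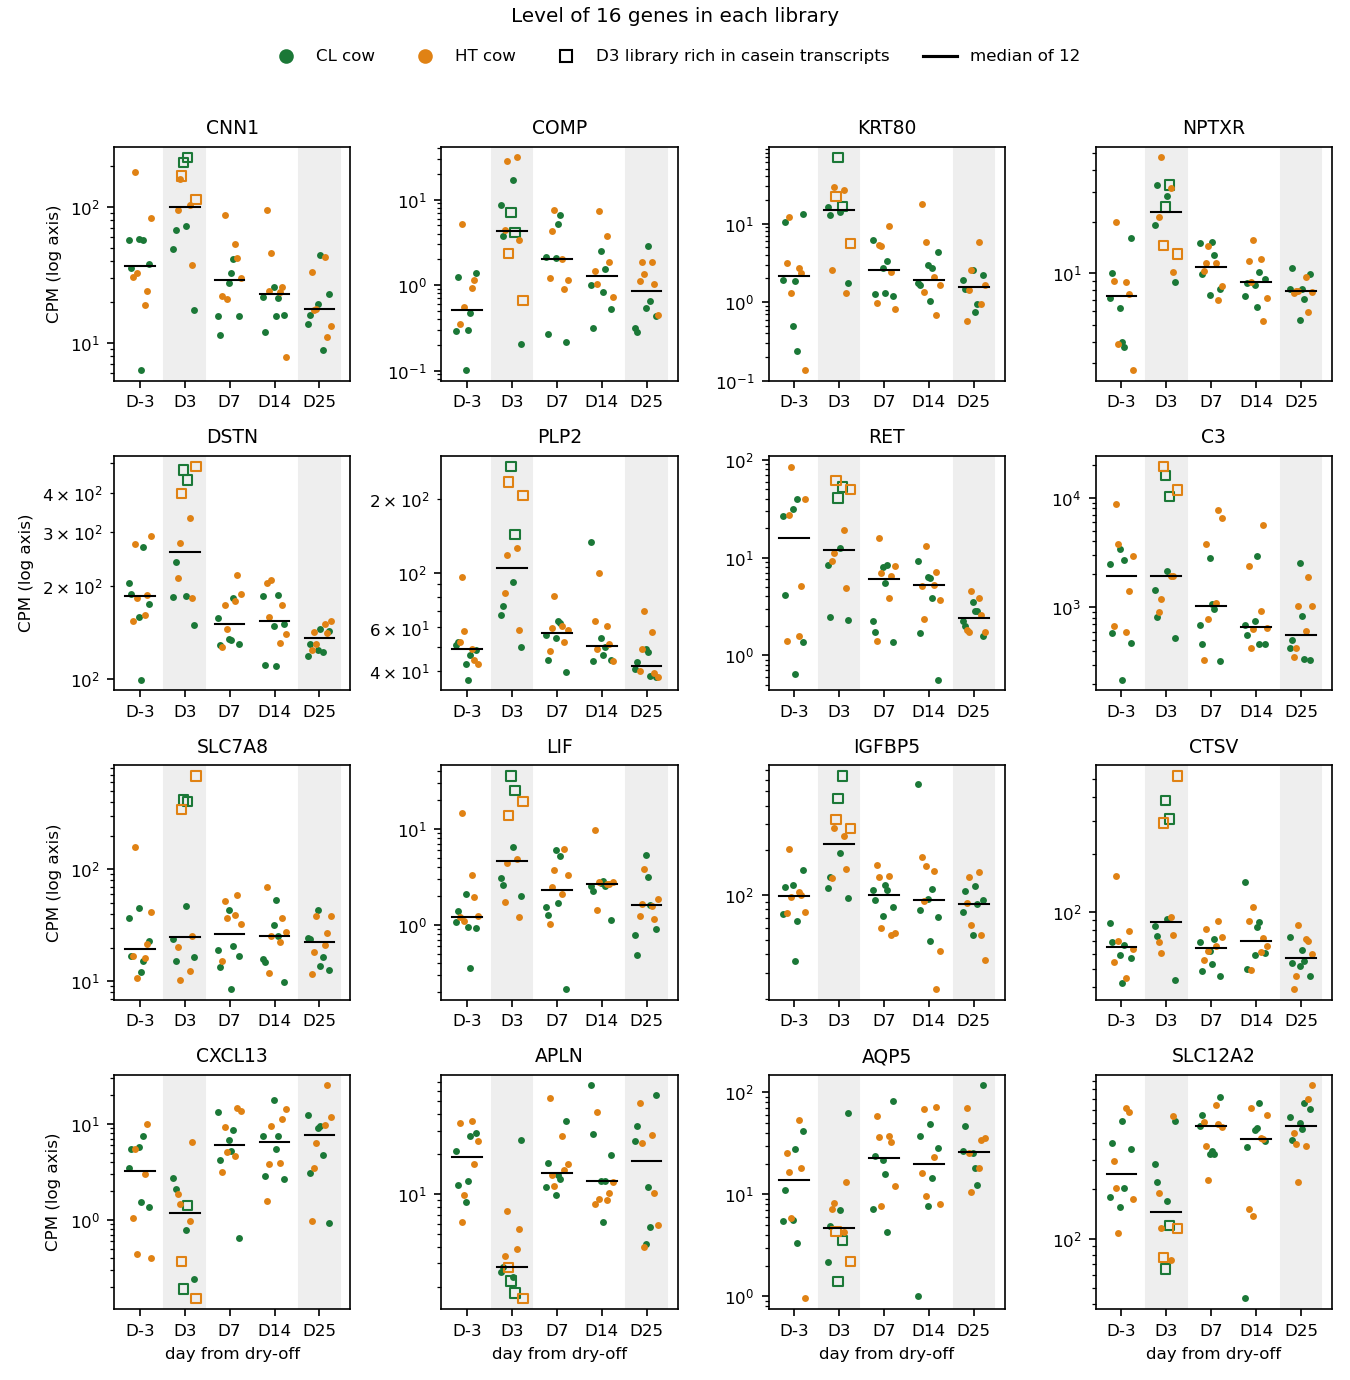
Level in CPM (log axis) of 16 genes in each of the 60 libraries by day from dry-off; green and orange points are CL and HT cows, open squares the 4 casein-rich D3 libraries and bars the median of 12. The grey bands mark D3 and D25. Some falls, such as those of COMP and NPTXR, span most D3 libraries, whereas SLC7A8 and C3 are high in the 4 squares and near the D25 levels in the other 8.

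Genes that act in the STAT3 route and in cell death were lower at D25 in 6 of 10 tested (60.0%), with a median of -0.55. LIF, the cytokine that activates STAT3 in the involuting gland, had 1.20 to 35.3 CPM at D3 (median 4.65) and 0.489 to 5.35 CPM at D25 (median 1.60). LIF fell by 2.34 on the log2 scale (SE 0.52, FDR 0.0029), but the 8 other D3 libraries reached only 6.39 CPM and without the 4 the difference was -0.75 (FDR 0.80). The related receptor OSMR, for oncostatin M, was at 148 to 822 CPM at D3 (median 335) and at 88.2 to 362 CPM at D25 (median 155) and fell by 1.09 (FDR 0.017), or was at -0.58 (FDR 0.70) without the 4. IGFBP5 binds IGF1 and is known for its rise in involution. It had 95.0 to 634 CPM at D3 (median 221) and 36.3 to 142 CPM at D25 (median 87.4), and 8 of 12 D25 libraries lay below every D3 library. Its difference was -1.53 (FDR 0.0020) and -0.96 (FDR 0.29) without the casein-rich libraries. The death receptor FAS fell by 1.03 (FDR 0.0022), TNFRSF1A by 0.44, and the survival gene MCL1 by 0.65. STAT3 itself, at -0.40 (FDR 0.058), BCL2L1, IL6R and CASP9 did not pass. With the cow as a block, STAT3 (FDR 0.021) and BCL2L1 (FDR 0.016) passed, and without the casein-rich libraries no gene of this list did.

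The acute phase and defence list had 2 of 5 tested genes lower and 1 higher. Complement C3 was at 526 to 19299 CPM at D3 (median 1923) and at 333 to 2550.5 CPM at D25 (median 556). Its 4 highest D3 values, 10286 to 19299 CPM, were those of the casein-rich libraries, and the other 8 ranged from 526 to 2155 CPM. The difference of -2.73 (FDR 0.0047) was -0.67 (FDR 0.90) without them. LBP, which binds bacterial lipopolysaccharide, had the same pattern, at -1.69 (FDR 0.033) and -0.60 (FDR 0.90). PGLYRP1, a peptidoglycan recognition protein of granulocytes, was higher at D25, by 1.13 (FDR 0.023), with all 12 D25 libraries above the D3 median, and by 0.81 (FDR 0.49) without the casein-rich libraries.

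Lysosome and autophagy genes were lower in 4 of 15 (26.7%), not far from the 18.3% of all loci with a symbol. The cysteine protease gene CTSV had 43.4 to 516 CPM at D3 (median 88.1) and 39.1 to 85.1 CPM at D25 (median 57.2), a difference of -1.55 (FDR 0.00033). The casein-rich libraries again held its 4 highest D3 values, and without them it was -0.33 (FDR 0.70). SQSTM1, an autophagy receptor, and GABARAPL1, which coats autophagosomes, fell by 1.08 and 0.85, and by 0.31 (FDR 0.79) and 0.34 (FDR 0.35) without the 4 libraries. The lysosomal membrane gene LAMP1 was at -0.42 and MAP1LC3B at -0.18, which did not pass. The median of the list was -0.42, and -0.06 without the casein-rich libraries.

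In the IGF axis 4 of 6 tested genes (66.7%) were lower. The binding protein gene IGFBP2 had 19.0 to 115 CPM at D3 (median 49.6) and 9.24 to 41.3 CPM at D25 (median 18.4), and it fell by 1.67 (SE 0.33, FDR 0.00090) and, without the casein-rich libraries, by 1.42 (FDR 0.044). IGFALS, which stabilises IGF complexes, fell by 1.17 and the receptor IGF1R by 0.37, and without the 4 they were at -1.33 (FDR 0.14) and -0.25 (FDR 0.64). The ligand IGF1 was at 0.48 (FDR 0.28). Of the other growth factors and receptors, EGFR (-0.78) and ERBB3 (-1.06), receptors of the epidermal growth factor family, were lower, with 12 of 12 D25 libraries below the D3 median for each. They did not pass without the casein-rich libraries, at -0.52 (FDR 0.47) and -0.76 (FDR 0.61). ERBB2 was at -0.57 (FDR 0.12). The ligand NRG2 pointed the other way at 1.48 (FDR 0.051), with all 12 D25 libraries above its D3 median, and passed only with the cow as a block (FDR 0.022).

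Genes of cholesterol synthesis had negative log2 fold changes in 14 of 15, with a median of -0.53. The 3 DEGs of 15 were about the share lower among all loci with a symbol. FDFT1, squalene synthase, had 35.3 to 101 CPM at D3 (median 68.3) and 27.2 to 48.8 CPM at D25 (median 36.0), a difference of -0.92 (FDR 0.00059) and -0.77 (FDR 0.043) without the casein-rich libraries. MSMO1, which demethylates sterols, and SREBF2, the transcription factor of the pathway, fell by 1.13 and 0.53, and were at -0.86 (FDR 0.41) and -0.42 (FDR 0.45) without these libraries.

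The milk protein and milk fat lists held no DEG. The milk protein genes CSN1S1, CSN2 and LALBA were at -2.12, -1.08 and -0.45 (FDR 0.23 to 0.86), and at 0.87, 1.70 and 1.14 without the casein-rich libraries, which were named for these genes. CSN2 ranged from 35.6 to 38031 CPM at D3 and from 269.9 to 15722 CPM at D25, so the cows differed widely on both days. Over 18 milk fat genes the median was 0.00, or 0.63 without the 4 libraries, and edgeR gave 3 higher and 1 lower at an unadjusted p under 0.05 while DESeq2 called 1 lower. In that list GPAM, which starts triglyceride synthesis, had 104 to 510.4 CPM at D3 (median 208) and 272 to 879 CPM at D25 (median 508), at 1.13 (FDR 0.15), and FASN, fatty acid synthase, was at 1.004 (FDR 0.21). Of 9 lactose and glucose genes PGM1 alone was a DEG, at -0.39, or -0.11 (FDR 0.94) without the 4. Amino acid genes gave 1 higher and 2 lower of 20, with a lower share of falls than the 18.3% of all loci with a symbol. PHGDH, which commits glucose carbon to serine, had 8.32 to 40.4 CPM at D3 (median 17.5) and 22.8 to 79.4 CPM at D25 (median 32.8) and was higher by 0.93 (FDR 0.015), but did not pass without the casein-rich libraries, at 0.76 (FDR 0.31). SLC7A8, a carrier of neutral amino acids, had the largest fall of the list, at -2.80 (FDR 0.00094). Its casein-rich libraries held 342 to 681 CPM and the other 8 D3 libraries 10.2 to 47.3, beside 11.6 to 43.5 CPM at D25, and without the 4 the difference turned to 0.15 (FDR 0.99).

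**Figure D3:**
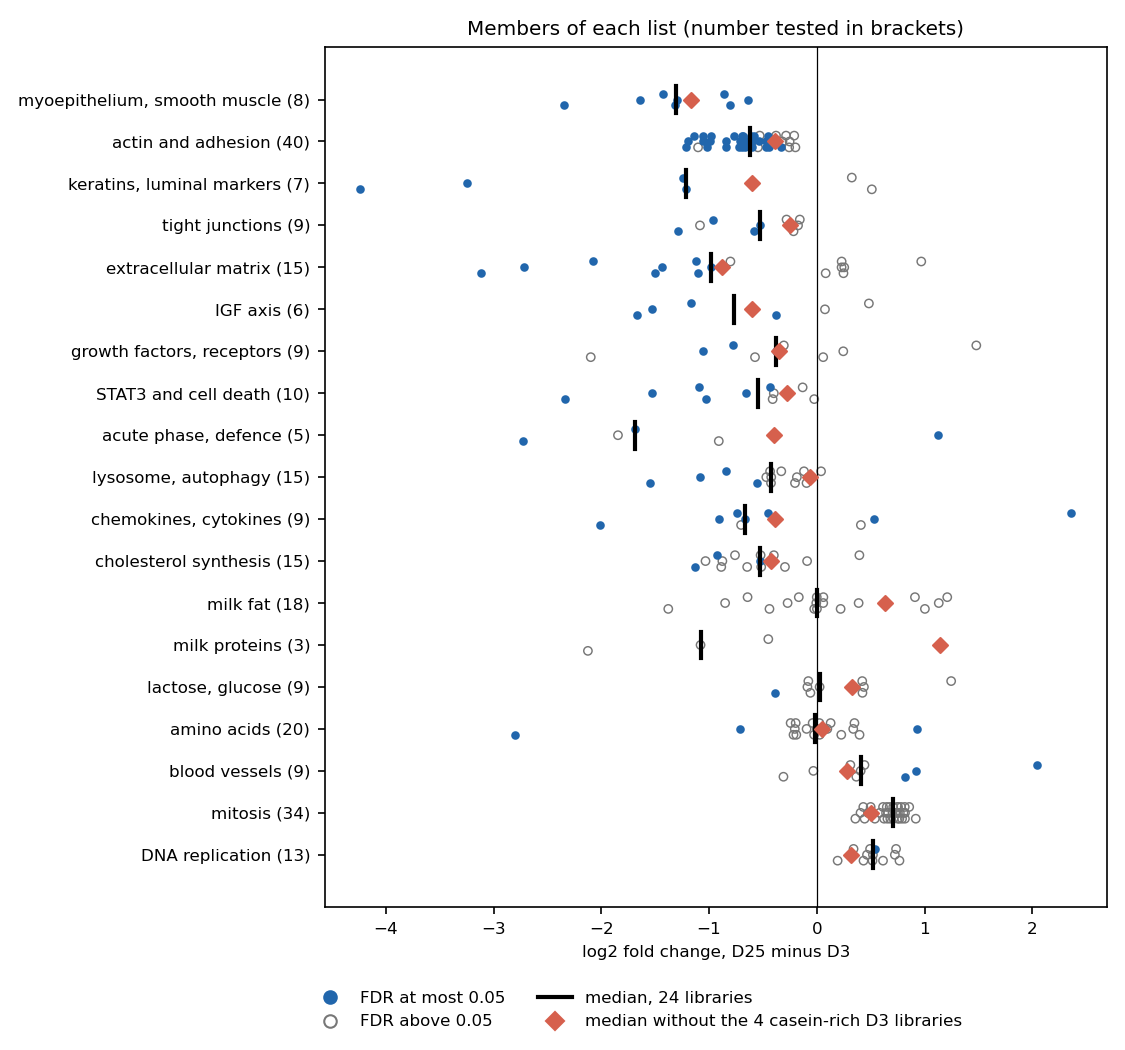
Log2 fold changes, D25 minus D3, of the tested members of 19 gene lists; filled points passed at FDR of at most 0.05, open points did not, bars are medians over the 24 libraries and diamonds medians without the 4 casein-rich D3 libraries. Myoepithelial and actin genes lie to the left of 0 and mitosis genes to the right, and the medians of milk proteins and milk fat move to the right without the 4 libraries.

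Chemokine and cytokine genes went both ways, with 2 higher and 5 (55.6%) lower of 9. CXCL13, which attracts B cells, had the largest rise among loci with a symbol and an average log2 CPM of at least 1. It had 0.153 to 6.43 CPM at D3 (median 1.19) and 0.943 to 25.2 CPM at D25 (median 7.66), a difference of 2.36 (SE 0.52, FDR 0.0029). Of the D25 libraries, 6 were above every D3 library and 2 were below the D3 median. CXCL12, a stromal chemokine, rose by 0.53 (FDR 0.031). Without the casein-rich libraries, which held some of the lowest D3 levels of CXCL13, neither passed, at 1.95 (FDR 0.14) for CXCL13 and 0.40 (FDR 0.49) for CXCL12. CXCL17, a chemokine of mucosal epithelia, had 3.01 to 39.9 CPM at D3 (median 9.36) and 0.486 to 6.72 CPM at D25 (median 2.54), and 7 D25 libraries lay below every D3 library. It fell by 2.02 (FDR 0.015) and by 2.44 (FDR 0.026) without the casein-rich libraries. The interleukin receptor genes IL1R1 (-0.91), IL27RA (-0.67) and IL10RB (-0.45) and CXCL16 (-0.74) were the other DEGs, none of which passed without the 4.

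Of 9 tested genes of blood vessels 3 were higher at D25 and none was lower, where 4.49% of the loci with a symbol were higher. APLN, the ligand apelin of sprouting vessels, had 1.63 to 25.4 CPM at D3 (median 2.80) and 3.96 to 56.2 CPM at D25 (median 17.9). All 12 D25 libraries lay above the D3 median of APLN, and 4 lay above the highest D3 library, that of cow 8686, for a difference of 2.05 (SE 0.45, FDR 0.0027). The angiopoietin genes ANGPT1 and ANGPT2, opposed ligands of the receptor TIE2, rose by 0.82 (FDR 0.037) and 0.92 (FDR 0.041). ANGPT2 had 11.5 to 29.7 CPM at D3 (median 16.9) and 22.3 to 70.4 CPM at D25 (median 29.2). Without the casein-rich libraries none of these passed, at 1.67 (FDR 0.15), 0.56 (FDR 0.61) and 1.03 (FDR 0.22). The receptor KDR was at 0.44 and VEGFA at 0.31, which did not pass. Of the 9 genes 7 had a positive and 2 a negative log2 fold change. At an unadjusted p under 0.05 in edgeR, 6 were higher and 1 was lower.

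Of the other genes named for the size of their rise, SLC12A2, which brings sodium, potassium and chloride into secretory cells, had 65.3 to 555 CPM at D3 (median 144) and 221 to 844 CPM at D25 (median 480.2). Each D25 library was above the D3 median, and the 4 casein-rich libraries, at 65.3 to 119.5 CPM, were among the lowest at D3. SLC12A2 rose by 1.29 (SE 0.32, FDR 0.0095), and the difference without them was 0.93 (FDR 0.35). The water channel AQP5 had 1.40 to 62.3 CPM at D3 (median 4.63) and 10.5 to 116 CPM at D25 (median 26.1), a difference of 1.86 (FDR 0.034), or 1.41 (FDR 0.50) without the 4 libraries, which held 1.40 to 4.33 CPM. The ammonium carrier RHBG (1.20) and the mitochondrial carrier SLC25A35 (1.27) rose too. PPP1R1B, an inhibitor of protein phosphatase, had 1.12 to 5.12 CPM at D3 (median 2.06) and 3.38 to 8.64 CPM at D25 (median 5.96). At D25, 10 of 12 libraries were above every D3 library, at a difference of 1.33 (FDR 0.0080). MSTN, myostatin, rose by 1.58, the ubiquitin ligase gene TRIM9 by 1.95, SAPCD2 by 1.27, the villin-like gene VILL by 1.26 and COX4I2, a subunit of cytochrome oxidase, by 1.20. Without the casein-rich libraries none of these 8 passed, with log2 fold changes from 0.78 for RHBG to 1.45 for TRIM9 and FDR from 0.16 to 0.54.

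Among the loci that rose with a symbol and an average log2 CPM of at least 1, the smallest p mostly belonged to smaller differences. CHST2, a sulfotransferase gene, had 8.73 to 28.6 CPM at D3 (median 22.3) and 20.8 to 51.7 CPM at D25 (median 31.9), with 10 of 12 D25 libraries above every D3 library, and rose by 0.74 (SE 0.15, FDR 0.0013). FAN1, a nuclease gene of DNA repair, had 30.7 to 45.8 CPM at D3 (median 39.8) and 44.5 to 53.8 CPM at D25 (median 48.0). Its rise was 0.30 (SE 0.07, FDR 0.0032), and 11 of 12 D25 libraries exceeded every D3 library. SPRY4, an inhibitor of growth factor receptor signalling, rose by 0.998 (FDR 0.0018), the homeobox gene HOXD9 by 0.79 (FDR 0.0027), and the locus that joins PYROXD2 and MIR1287 by 1.01 (FDR 0.0016). None of these 5 passed without the casein-rich libraries, where FDR ranged from 0.086 to 0.26. STRC, at a lower average level, had a smaller p than these 5 and rose by 1.92 (FDR 0.00017).

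Among loci with a symbol and an average log2 CPM of at least 1, the largest falls were mostly those of genes high in the casein-rich libraries. Some genes below that level fell further, among them MYH2 (-4.96) and ANKRD1 (-4.45), which passed without the 4 libraries, and SCNN1B (-4.13), which did not. RET, a receptor tyrosine kinase, had 2.29 to 61.6 CPM at D3 (median 11.9) and 1.57 to 4.52 CPM at D25 (median 2.43). The 4 libraries held 40.8 to 61.6 CPM of RET and the other 8 up to 19.1, and the difference of -3.13 (FDR 0.00057) was -1.75 (FDR 0.21) without them. SCNN1G, a chain of the epithelial sodium channel, followed the same pattern at -2.97 and -1.26 (FDR 0.67). MUC20 (-3.73), a mucin, RNF183 (-3.38), a ubiquitin ligase, RND1 (-2.49) and RASL11B (-2.67), small GTPases, and LOC507550 (-4.03) and LOC101902670 (-2.58) did not pass without the 4 libraries either, with FDR from 0.15 to 0.98.

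Among the 8 falls with the smallest p, in contrast, 7 passed without the casein-rich libraries. NPTXR, a pentraxin receptor best known from neurons, had 8.93 to 47.5 CPM at D3 (median 22.8) and 5.35 to 10.8 CPM at D25 (median 7.86). Of the D25 libraries 9 lay below every D3 library, and the difference of -1.56 (SE 0.24, FDR 4.4e-05) was -1.66 (FDR 0.00051) without the 4. PLP2, a membrane protein of the endoplasmic reticulum, had 50.2 to 271 CPM at D3 (median 105) and 37.7 to 69.8 CPM at D25 (median 42.0), at -1.47 (FDR 9.3e-06) and -0.88 (FDR 0.0078). The RNA-binding RBMS2 fell by 1.34 and 0.95, MALL, a raft protein, by 1.02 and 0.93, and MTURN by 1.40 and 0.94, with and without the 4 libraries. SAT1, which acetylates polyamines, had 696 to 2809 CPM at D3 (median 1082) and 450.2 to 785 CPM at D25 (median 675) and fell by 1.12, or 0.50 (FDR 0.032) without them. DSTN is the seventh, and TMBIM1, at -1.52 and at -0.71 (FDR 0.10) without the 4, is the exception. Loci without a symbol reached similar sizes, with XLOC_008397 at 2.31 and XLOC_019701 at 1.84, and XLOC_008455 at -4.71 and XLOC_019085 at -4.47. XLOC_019085 did not pass with the cow as a block (FDR 0.16), and without the casein-rich libraries none of these 4 passed, at 1.75, 1.85, -0.71 and -0.38.

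Genes of mitosis had positive log2 fold changes in all 34 tested, with a median of 0.71. The median of all loci was 0.02 and that of loci with a symbol -0.05. None was a DEG in edgeR, although 20 had an unadjusted p under 0.05, and DESeq2 called 1. With the cow as a block 2 were, MYBL2 (FDR 0.049) and BUB1B (FDR 0.035). MKI67, the proliferation marker, had 25.9 to 89.5 CPM at D3 (median 44.3) and 46.8 to 136 CPM at D25 (median 73.4), with all 12 D25 libraries above the D3 median, at a difference of 0.70 (SE 0.33, FDR 0.19). TOP2A, which untangles chromosomes, was at 0.82 (FDR 0.15) and CDK1, the kinase of mitotic entry, at 0.41 (FDR 0.32). The summed level of the 34 genes was 244 to 686 CPM at D3 (median 385) and 330 to 1209 CPM at D25 (median 550.0), so the days overlapped widely. At D7 and D14 the median of that sum was 748 and 768 CPM. Without the casein-rich libraries the median log2 fold change was 0.50. DNA replication genes were positive in 13 of 13 at a median of 0.52, and cyclin E1 (CCNE1), which drives entry into S phase, was the only DEG, at 0.54 (FDR 0.044), or 0.53 (FDR 0.31) without those libraries. The CDK inhibitors CDKN1B (-0.22), CDKN2C (0.12) and CDKN2D (-0.26) did not pass. With the cow as a block 1 of these 3 was lower, and DESeq2 called 1 lower.

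Few stress and translation genes were paired with a locus. Of 9 redox genes 3 (33.3%) were lower: SAT1, the thioredoxin gene TXN (-0.56) and NFE2L2 (-0.44), a regulator gene of the oxidative stress response. SAT1 alone of these 3 passed without the casein-rich libraries. HMOX1, heme oxygenase, was at 1.20 (FDR 0.067) with 7 of 12 D25 libraries above every D3 library. Of 5 chaperone and stress genes the small heat shock protein gene CRYAB was lower, at -1.15, or -0.66 (FDR 0.47) without the casein-rich libraries, and DNAJA1 (0.18) and HSPD1 (0.14) did not pass. Translation genes were lower in 3 of 5 (60.0%). EIF4EBP1, which restrains cap-dependent translation, was the most changed at -1.45 (FDR 0.0098), and at 0.25 (FDR 0.94) without the casein-rich libraries. Interferon response genes had a median of -0.34 and 0 DEGs of 7, in edgeR and in DESeq2, and 0 at an unadjusted p under 0.05.

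**Figure D4:**
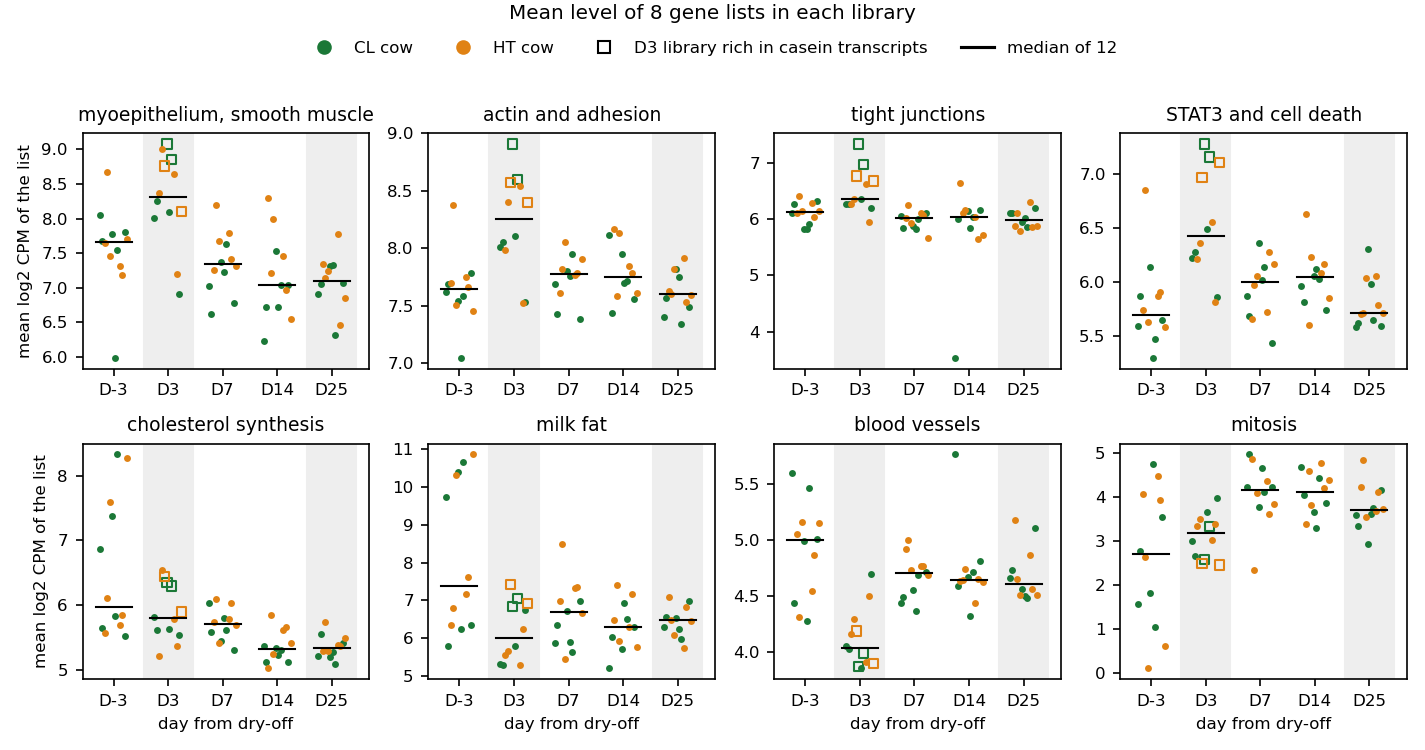
Mean log2 CPM of the members of 8 gene lists in each of the 60 libraries by day from dry-off, with CL cows in green, HT cows in orange, the 4 casein-rich D3 libraries as open squares and bars at the median of 12. The medians of the myoepithelial and actin lists are highest at D3, that of blood vessel genes is lowest at D3, and that of mitosis genes is highest at D7 and D14.

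Of the other days none lay as far from D3 as D25 in these loci. Over the 206 loci that rose, the median difference in mean log2 CPM from D3 was 0.38 at D-3, 0.53 at D7, 0.56 at D14 and 0.77 at D25. Over the 680 that fell, it was -0.45, -0.51, -0.50 and -0.66. All these differences share the D3 libraries, and the loci were chosen at D25, so the sizes are a description. CNN1 had a median of 36.6 CPM at D-3, 28.9 at D7, 22.6 at D14 and 17.6 at D25, which is the lowest of the 5 medians. KRT80, by contrast, had 2.14 CPM at D-3, 2.60 at D7 and 1.94 at D14, so its median was high at D3 alone. APLN was at 19.0 CPM at D-3, against 2.80 at D3 and 17.9 at D25.

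Markers of other cell types were mostly not paired with a locus. The 4 of 22 B and plasma cell genes tested summed to 209 to 633 CPM at D3 and 233 to 508 CPM at D25. Among them CXCL13, which attracts B cells, was higher. SDC1, which epithelium also carries, was lower, at -0.74, or -0.89 (FDR 0.13) without the casein-rich libraries. Macrophage genes, 5 of 23, summed to 250 to 408 and 210.3 to 738 CPM. Of these 5, 4 had a positive log2 fold change, and the median was 0.33. CSF1 alone was lower, at -0.78, or -0.45 (FDR 0.62) without those libraries, whereas AIF1 and CYBB, both at 0.33, did not pass. ZAP70 of T cells was at 0.45 and NCF4 of neutrophils at -0.61, neither of them DEGs. Adipocyte genes, 3 of 14, summed to 17.6 to 212 CPM at D3 and 25.5 to 244 CPM at D25, and ADIPOQ, at 1.08 (FDR 0.14), had all 12 D25 libraries above the D3 median. Skeletal muscle was represented by MYH2 and MYH7. MYH2 had 0.451 to 16.7 CPM at D3 (median 3.65) and 0 to 0.759 CPM at D25 (median 0.0600), a difference of -4.96 (FDR 0.00044) that was -3.86 (FDR 0.027) without the casein-rich libraries. MYH7 went the other way, with a positive log2 fold change at an unadjusted p under 0.05 in edgeR, and was not a DEG. The summed level of MYH2 and MYH7 was 0.779 to 16.7 CPM at D3 and 0.317 to 1.88 CPM at D25. The part of each of these lists in the results above was not tested. Red cell and skin genes were not paired.

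Among the 886 DEGs the change from D3 to D25 pointed the same way in CL and HT cows. Within CL cows the 206 and 680 loci had median log2 fold changes of 0.73 and -0.78, and within HT cows 0.69 and -0.70, and all 886 had the pooled sign in both, as a description of loci chosen on the pooled cows. The difference between HT and CL in the change from D3 to D25 was tested by the interaction in edgeR. Of all 14714 loci 0 were DEGs (smallest FDR 0.999998), and 36 had an unadjusted p under 0.05. Evenly spread p-values would put a share of about 0.05 of the loci there, so this test was conservative. Its 0 DEGs therefore do not show an equal change in both treatments. Cows 8647 (CL) and 8668 (HT), whose D3 libraries matched the D25 library of the other better than their own, could be exchanged between treatments, and without them the interaction had 0 DEGs and 23 loci at an unadjusted p under 0.05. Mitosis genes had a median of 0.28 in CL and 0.99 in HT cows. MKI67 was at 0.27 in CL and 1.09 in HT cows, and this difference did not pass (FDR 0.999998). CNN1 was at -2.40 and -2.32, APLN at 1.84 and 2.29, and COMP at -3.02 and -3.20 in CL and HT cows. With 6 cows per day in each treatment, CL cows alone gave 1 DEG and HT cows alone 3, with 1630 and 1324 loci at an unadjusted p under 0.05.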

How the data were processed

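The authors sequenced RNA of the biopsies on a NextSeq 500, mapped reads with TopHat2, merged transcripts with Cufflinks and counted uniquely mapped reads per locus with htseq-count. The methods name the bosTau7 build and the submitters' processing notes name UMD3.1, with Trim Galore 0.4.1, TopHat2 2.0.13 and Cufflinks 2.2.1, so no coordinates are given. The deposited values are these raw read counts. They cover 25223 loci in 26073 lines, because 742 loci hold more than 1 ENSEMBL gene, and each locus was tested a single time. Loci were paired with gene symbols only through the part of the authors' tables held here, which gave 3033 loci. Sequences of the genes were not used here. Values of a few genes are not reported here.

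A locus was kept if 6 or more of the 60 libraries reached 1 CPM, and 14714 were kept. Factors were computed by TMM, and D25 was compared with D3 by the quasi-likelihood F-test of edgeR 4.0.16 (R 4.3.3) in a fit of all 60 libraries with a mean for each day, at an FDR of at most 0.05 by Benjamini-Hochberg. Interaction was tested in a fit with a mean for each treatment and day. DESeq2 1.42.0 gave an alternative, and tables were made with Python 3.11.15. The edgeR fit of D25 against D3 was also run on simulated counts with known changes. Depth was alike in all libraries, with totals from 20525083 for D3 and D25, so loci of low CPM carry the largest counting error.

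Among DEGs with a symbol and an average log2 CPM of at least 1, the 12 with the largest log2 fold change and the 8 with the smallest p in each direction were named, with up to 2 loci without a symbol, and members of 32 gene lists by their role. The comparison, the members and the lists were chosen with earlier results of these data known, and the 4 casein-rich D3 libraries were set apart after the data had been seen. Of the pairing, each day's deviations from its mean correlated between D3 and D25 of the same cow at -0.08 to 0.63 (median 0.39, above 0.1 in 11 of 12), against a median of -0.06 for different cows, and 6 of the 12 D3 libraries matched the D25 library of their own cow best. D3 of cow 8513 matched D25 of cow 8660 at 0.54 (own 0.24) and 8660 matched 8513 at 0.48 (own 0.35), and 8647 matched 8668 at 0.31 (own -0.08) and 8668 matched 8647 at 0.68 (own 0.29). The alternatives tried were other scalings, filters, dispersions, thresholds, samples and covariates, the cow as a block, and leaving out each cow.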

Additional observations from a re-analysis of the deposited data

How the results depend on the processing

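The count of 886 DEGs (206 higher, 680 lower) stayed within 1.5 times, for the total and for each direction, under RLE factors, TMM without milk protein genes, other filters, the newer quasi-likelihood method, tagwise dispersions, fits of fewer days and treatment as a term (771 to 1242 DEGs over these settings). Under DESeq2 1291 loci passed, with 320 higher and 971 lower. Scaling by library size alone left 174 (44 higher, 130 lower) and moved the median of all loci from 0.02 to 0.15 on the log2 scale. A threshold of 0.01 left 295 (32 and 263), and one of 1 on the log2 scale left 282 (58 and 224). The replicate block, with the cow as the block, gave 1767 (707 and 1060), so 40.0% of the DEGs were higher against 23.3% without it. It gave 1498 (509 higher) without cows 8513 and 8660, 1987 (813 and 1174) with their labels exchanged at D14 and D25, and 718 (216 and 502) without these and cows 8647 and 8668, a setting added after seeing the data. Of the 41 loci named by the rule, 40 passed with the block and XLOC_019085 did not. CL cows alone gave 1 (0 and 1) and HT cows alone 3 (1 and 2), with 6 cows each. Leaving out each cow gave 390 to 1145 in all, 58 to 320 higher and 330 to 825 lower.

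Without the 4 casein-rich D3 libraries, chosen after seeing the data, 57 loci passed (1 higher, 56 lower), 9 of the 41 named loci passed, 31 did not and SLC7A8 turned to 0.15 (FDR 0.99). That fit has 8 D3 libraries in place of 12, and the smaller n and the removal of these libraries cannot be told apart as causes. The interaction had 0 DEGs in each of its 6 fits, with 19 to 86 loci at an unadjusted p under 0.05. Each count is far below a share of 0.05 of the loci tested, so the fits do not show an equal change. A change within a cow cannot be read while labels may be exchanged, and symbols cover 3007 of the 14714 loci.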

Other observations

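Several genes and gene families outside the lists were described after their values had been seen. GJB1, a connexin of secretory epithelia and liver that forms gap junctions between cells, had 0 to 7.91 CPM at D3 (median 0.630) and 1.95 to 11.9 CPM at D25 (median 3.81) and rose by 1.93 (FDR 0.025). Another connexin gene, GJB5, fell by 2.26 (FDR 0.00059). Without the 4 casein-rich D3 libraries neither passed, at 1.47 (FDR 0.42) and -1.69 (FDR 0.074). Of 4 aquaporins, AQP5 was higher and AQP1, the water channel of vessels and myoepithelium, was lower at D25, at -0.79 (FDR 0.025) and at -1.02 (FDR 0.026) without the casein-rich libraries. SCNN1B, a partner of SCNN1G in the epithelial sodium channel, fell by 4.13 (FDR 0.00044), or was at -1.11 (FDR 0.77) without the casein-rich libraries, which held 5.16 to 8.18 CPM against 0.0781 to 0.549 CPM in the other 8 at D3. SCNN1D was at 0.72 (FDR 0.081). The calcium-activated potassium channel of smooth muscle was lower in both its subunits, KCNMA1 (-1.37) and KCNMB1 (-0.99). Without the casein-rich libraries KCNMB1 passed, at -1.32 (FDR 0.025), and KCNMA1 did not, at -1.01 (FDR 0.089). All 3 members of the FOS and JUN family tested were lower, FOSL1 by 1.92, JUNB by 1.16 and FOSL2 by 1.05, as were 4 of 7 dual-specificity phosphatases. None of the FOS, JUN or phosphatase genes passed without the casein-rich libraries.

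STRC, which encodes stereocilin, was the 1 locus higher at D25 that passed without the casein-rich D3 libraries. It had 0.117 to 0.528 CPM at D3 (median 0.321) and 0.325 to 3.35 CPM at D25 (median 1.05), a difference of 1.92 (FDR 0.00017) and of 2.08 (FDR 0.0031) without them. Among the 56 lower loci of that fit were genes of the activin and YAP/TEAD routes that belonged to no list. INHBA, the activin A subunit, had 0.328 to 4.80 CPM at D3 (median 1.38) and 0.120 to 1.27 CPM at D25 (median 0.406), FSTL3 binds activin and fell by 1.60, and TEAD4 is a transcription factor that YAP binds and fell by 1.17. ANKRD1, known as a target of YAP, had 0.0410 to 13.1 CPM at D3 (median 2.01) and 0 to 0.374 CPM at D25 (median 0.160). The differences without the 4 libraries were -2.06 (FDR 0.033) for INHBA, -1.78 (FDR 0.0031) for FSTL3, -1.14 (FDR 0.040) for TEAD4 and -4.54 (FDR 0.0031) for ANKRD1. Lubricin (PRG4), at -2.03 and -2.01 (FDR 0.045), CH25H, which makes 25-hydroxycholesterol, at -1.19 and -1.34 (FDR 0.0049), and the glutamate receptor gene GRIN2C, at -2.01 and -2.15 (FDR 0.0031), were further members. These genes were named after their values were seen, and no set of them was tested.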
